A study of Mus musculus with 9 samples.

Results

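The regions described here are m6A peaks on long noncoding RNAs (lncRNAs): peaks of wild-type mouse embryonic stem cells (mESCs) whose summit, the base of highest signal, lay in the annotated body of at least 1 lncRNA gene and in no gene body of another biotype. They were 998 of the 22531 peaks of wild-type replicate 1 (4.43%) and 124 of the 5040 peaks of replicate 2 (2.46%). Peaks with their summit in protein-coding bodies only, which serve as the comparison, made up 81.8% and 89.4% of the lists. The series held 9 libraries of ES cells, namely 2 m6A immunoprecipitations each from wild-type, Mettl3KO and Zc3h13KO cells and 1 input per genotype, all in cells whose background is given as Rosa26:CRE with a Bir ligase. What follows rests on the 2 immunoprecipitations of wild-type cells, and the other 7 libraries were not analysed here, so no comparison with the knockouts is given. RNA was selected with oligo-dT, enriched with a polyclonal rabbit antibody against m6A and sequenced, and peaks were called against input in each replicate separately. The labels do not say whether the replicates were separate cultures, and the names of the peaks in the list of replicate 1 carry another tag than wild type.

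N6-methyladenosine (m6A) is placed on RNA as it is transcribed, by a complex around Mettl3 and Mettl14, mostly at adenosines of the DRACH consensus. It is found on messenger RNAs, where it gathers near the stop codon, and on many lncRNAs, which are spliced, capped and often polyadenylated like messenger RNAs but encode no known protein. In embryonic stem cells lncRNAs include imprinted transcripts, hosts of small RNAs and transcripts linked to pluripotency. The lists carry no strand, so where transcripts run in both directions a peak cannot be assigned to one of them.

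At 6 lncRNAs the summits of overlapping peaks of both replicates lay in the same 300-base window of the RefSeq promoter table (GRCm38.p6, the build that mm10 names). The 4 of them with the highest fold enrichment, ranked by the lower of the 2 replicates, are printed 5′ to 3′ on the strand of the lncRNA, because they show the sequence under the summits where a lncRNA starts close to a gene start. Capitals mark each GGAC, a form of the core of the DRACH consensus (D is A, G or T, R is A or G, H is A, C or T). Other forms are not marked. The windows are D030025P21Rik at chr12:84876442-84876741 (+ strand), Gm38500 at chr10:120202081-120202380 (+ strand), Ino80dos at chr1:63114490-63114789 (+ strand) and 2610306M01Rik at chr6:86849034-86849333 (− strand).
D030025P21Rik: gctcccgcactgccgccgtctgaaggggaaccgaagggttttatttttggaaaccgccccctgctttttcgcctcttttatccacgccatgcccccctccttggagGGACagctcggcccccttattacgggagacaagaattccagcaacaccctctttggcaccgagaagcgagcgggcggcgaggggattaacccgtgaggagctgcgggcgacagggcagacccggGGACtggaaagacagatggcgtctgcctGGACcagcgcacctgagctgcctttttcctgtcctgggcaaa
Gm38500: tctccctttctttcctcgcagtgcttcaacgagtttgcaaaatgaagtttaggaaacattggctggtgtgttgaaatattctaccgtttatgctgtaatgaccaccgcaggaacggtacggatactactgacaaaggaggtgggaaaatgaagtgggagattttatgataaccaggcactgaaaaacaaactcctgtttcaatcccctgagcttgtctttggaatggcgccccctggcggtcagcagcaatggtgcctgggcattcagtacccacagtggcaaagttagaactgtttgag
Ino80dos: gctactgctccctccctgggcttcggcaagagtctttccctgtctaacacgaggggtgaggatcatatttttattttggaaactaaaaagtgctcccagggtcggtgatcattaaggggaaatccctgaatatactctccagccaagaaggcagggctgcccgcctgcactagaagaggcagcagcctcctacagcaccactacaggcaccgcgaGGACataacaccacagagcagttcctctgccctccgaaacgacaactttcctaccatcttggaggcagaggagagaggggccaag
2610306M01Rik: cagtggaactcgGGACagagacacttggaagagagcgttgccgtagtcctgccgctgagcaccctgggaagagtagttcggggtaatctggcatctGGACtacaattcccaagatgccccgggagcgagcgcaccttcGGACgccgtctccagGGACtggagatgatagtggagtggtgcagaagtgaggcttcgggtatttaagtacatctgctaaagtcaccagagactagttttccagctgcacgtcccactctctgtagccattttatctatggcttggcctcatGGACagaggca

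The body of D030025P21Rik overlaps the start of the protein-coding gene Ltbp2, a matrix protein gene on the opposite strand. Its summits were at bases 132 and 144 of the window. The nearest of its 3 GGAC copies was 23 bases from the summit of replicate 1 and lay in the body of Ltbp2 too. Fold enrichment over input was 33.9 in replicate 1 and 9.04 in replicate 2. In 2610306M01Rik, opposite to the kinase gene Aak1, the summits of the replicates were 3 bp apart, at bases 174 and 177, with fold enrichments of 15.0 and 5.74, and the window held 5 GGAC copies. The Gm38500 window, at the start of Irak3, whose body Gm38500 overlaps, held no GGAC. It did hold other forms of DRACH, such as TGACA and GAACT. The peaks of Gm38500 there reached a fold enrichment of 21.2 and 6.40. Ino80dos, the opposite-strand transcript of Ino80d, had 1 copy 165 bases from the summit of replicate 1, with fold enrichments of 9.77 and 6.09. Of the 6 windows, 5 held GGAC on the strand of the lncRNA, against 65.6% of the 32851 windows of the table on the strand of their gene. The longer GGACT was in 2 of the 6, against 26.1% of all windows. On either strand GGAC was in 5 of the 6 and in 87.7% of all windows. Every GGACT contains a GGAC, the counts on either strand are of GGAC only, and GGAC was chosen for display after these counts were seen. Other forms of DRACH were not counted, so a window without GGAC does not lack the consensus, and it says nothing about methylation elsewhere in the peak. Of the 6 windows, 5 were read as the reverse complement of the table's sequence.

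The members fell on 707 of the 12731 lncRNA genes in the table. Replicate 1 had a member on 702 genes (5.51%), replicate 2 on 102 (0.801%), and 97 genes had one in both. Of the genes of replicate 2, 95.1% were also found in replicate 1, and of those of replicate 1, 13.8% in replicate 2. In 94 of the 97 genes members of the replicates overlapped, and in 77 the highest peaks did. Most genes held 1 peak, namely 499 of 702 in replicate 1 and 81 of 102 in replicate 2. In replicate 1, 121 genes held 2 members, 47 held 3 and 35 held 4 or more. Genes with 1 member in replicate 1 were found in replicate 2 less often (9.22%) than those with 2 (23.1%), 3 (27.7%) and 4 or more (28.6%). The 95% intervals with 2, 3 and 4 or more members overlapped widely, so no rise beyond 2 is shown. All of them lay above the interval with 1 member. More members give a gene more chances to be found again, and the part of this was not tested. The shares of genes found in the other replicate were not computed for protein-coding genes or for all genes. They can therefore not be read as particular to lncRNAs. More than 1 lncRNA body contained the summit of 42 members of replicate 1 and 5 of replicate 2, and these count for each gene.

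The replicates differed in length of the list, and the overlap has to be read from both sides. Of the 124 members of replicate 2, 115 shared at least 1 bp with a replicate 1 peak (92.7%, exact 95% binomial interval 86.7 to 96.6), and the share over all peaks of replicate 2 was 92.1%. Of the 998 members of replicate 1, 109 overlapped a peak of replicate 2 (10.9%, 9.05 to 13.0), whereas the share over all peaks was 19.1%. Peaks in protein-coding bodies only were shared in 92.0% (91.2 to 92.8) and 20.8% (20.3 to 21.4) of cases. The intervals of lncRNA and protein-coding peaks thus overlapped in replicate 2 and were apart in replicate 1. The intervals allow for counting error alone, since peaks of 1 library are no replicates of it. When reduced to the 5040 peaks of highest −log10 q, replicate 1 held a partner for 54.0% of the members of replicate 2, and 43.3% of its own members had one. At that length the shares over all peaks and over protein-coding peaks were not computed. The 54.0% and 43.3% can therefore not be read as particular to lncRNA-only peaks.

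In both classes the shared fraction of replicate 1 rose over the ranges of −log10 q, the confidence of the call, but not steadily with fold enrichment. The median −log10 q was 18.5 in lncRNA-only peaks and 31.5 in protein-coding peaks of replicate 1. In ranges of −log10 q, chosen after the data were seen, 1.79% of lncRNA-only peaks and 3.63% of protein-coding peaks were shared under 10. Between 20 and 40 the shares were 7.17% (4.16 to 11.4) and 13.4% (12.5 to 14.4), with intervals that did not overlap. At 80 or more they were 49.5% (38.9 to 60.0) and 54.3% (52.6 to 56.0), which did, as they also did under 10, between 10 and 20 and between 40 and 80. In each of 5 ranges of fold enrichment, also chosen then, the share of lncRNA-only peaks was also the lower one. From the lowest range (under 4) to the highest (12 or more) it was 13.3%, 6.50%, 4.64%, 10.7% and 26.8%, against 19.3%, 18.1%, 16.3%, 23.2% and 38.7% for protein-coding peaks. The lists hold no read counts, so the part of read depth was not tested.

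**Figure D1:**
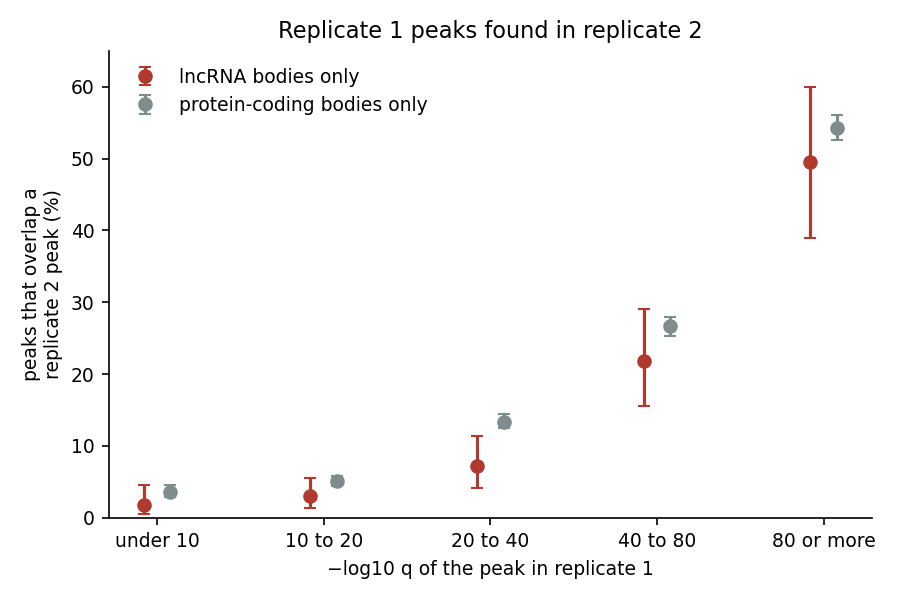
Share of replicate 1 peaks (%, y axis) that overlap a replicate 2 peak, by −log10 q of the replicate 1 peak (x axis), for peaks in lncRNA bodies only (red) and protein-coding bodies only (grey), with exact 95% binomial intervals. The share rose from 1.79% to 49.5% for lncRNA-only peaks, and the intervals of the classes were apart between 20 and 40 and overlapped in the other ranges.

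Shared members of replicate 1 were stronger and wider than the others. Their median fold enrichment was 9.60 against 6.77 in members not shared, their median −log10 q 71.0 against 16.8 and their median width 662 bp against 403. Protein-coding peaks of replicate 1 differed in the same directions. Their medians were 5.48 against 5.0 in fold enrichment, 74.5 against 25.6 in −log10 q and 798 bp against 394 in width. At overlapping members the summits were a median of 8 bp apart, and in 96 of 107 cases within 100 bp (89.7%).

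lncRNA-only peaks had a higher fold enrichment than protein-coding peaks in both replicates. The median was 6.80 (quartiles 5.19 and 9.71) against 5.10 (3.25 and 7.71) in replicate 1, and 7.54 (6.06 and 9.24) against 6.28 (4.67 and 8.25) in replicate 2, so that the quartile ranges overlapped. Their median width was 423 bp in replicate 1 and 440 bp in replicate 2, against 453 and 449 bp. The median −log10 q of replicate 2 was 8.03 against 7.53. Since fold enrichment and −log10 q depend on the signal in the input, they are measures of enrichment and not of the number of methylated sites.

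Among the 97 genes with members in both replicates the highest fold enrichment ranged from 1.86 to 44.3 in replicate 1 (median 10.5) and from 3.39 to 21.4 in replicate 2 (median 8.09). The order of genes was only loosely the same, with a Pearson coefficient of 0.301 on log2 values and a Spearman coefficient of 0.298 across the 97 genes (some of which share peaks). For −log10 q the Spearman coefficient was 0.436. In 31 genes the fold enrichment was higher in replicate 2. The highest peaks are different peaks in the genes outside the 77 counted above.

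**Figure D2:**
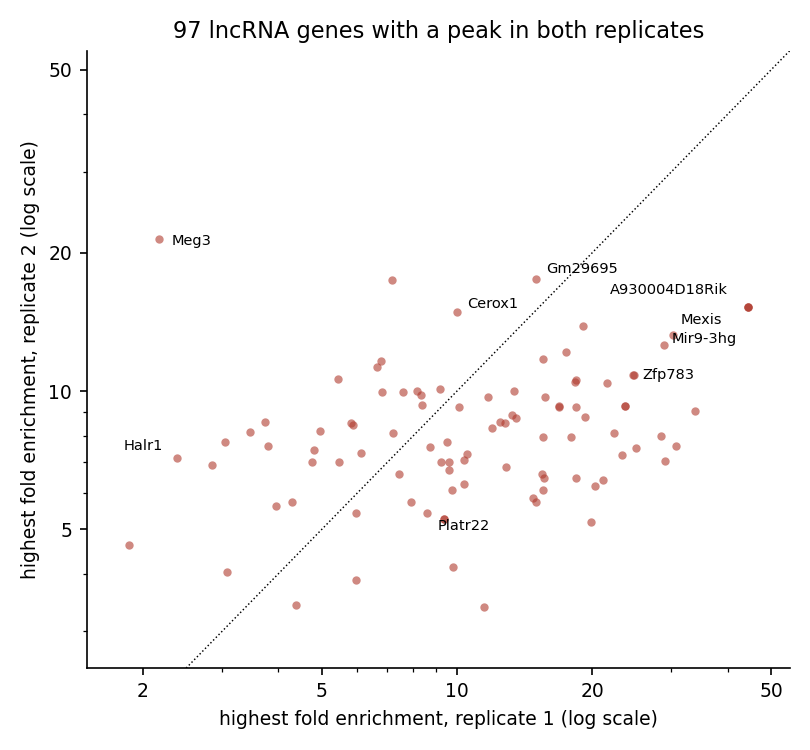
Highest fold enrichment of a lncRNA-only peak per gene in replicate 1 (x axis) and replicate 2 (y axis), log scales, for the 97 lncRNA genes with a peak in both; the dotted line marks equal values. Meg3 (2.17 and 21.4) stands far above the line, and A930004D18Rik (44.3 and 15.2) at the right.

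Ranked by the lower replicate, the highest fold enrichment belonged to a chromosome 2 peak in the overlapping bodies of A930004D18Rik, Gm17762 and Gm33085. Its fold enrichment was 44.3 in replicate 1, at chr2:18025772-18028356, and 15.2 in replicate 2, at chr2:18026872-18028297. As the bodies overlap and the lists have no strand, the values belong to 1 peak and not to 3 genes. Mexis, a lncRNA near the cholesterol transporter gene Abca1, had a peak at chr4:53262362-53263392 with a fold enrichment of 30.2, which was 13.3 in replicate 2. Mir9-3hg, the host transcript of the neuronal microRNA miR-9, had 1 peak in each replicate, with 28.8 and 12.6, and its summits lay 26032 and 26078 bp past the hairpin of Mir9-3. Zfp783, which the table types as lncRNA, had 1 peak of 2492 bp in replicate 1, where the fold enrichment was 24.8, and 3 narrower ones within it in replicate 2, between 5.06 and 10.8.

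Other genes named by rank were higher in replicate 2. D5Ertd605e had 7.17 and 17.4. The highest values of Gm29695, 15.0 and 17.5, belong to different peaks, and its peak of 17.5 overlapped one of 14.4 in replicate 1. Cerox1, which regulates mitochondrial complex I, had its peak at chr17:25573850-25575008 with 9.98 and 14.9. D930048N14Rik had 5.44 and 10.6. In the same ranking Gm32474 (19.1 and 13.9), 1190028D05Rik (17.5 and 12.2) and Gm9895 (15.6 and 11.7) were higher in replicate 1.

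Other genes stood out by the number of their members. Gm3134, head to head with the transcription factor gene Sall1, had 6 members in replicate 1 and 3 in replicate 2. Its 3 peaks of replicate 2 had fold enrichments of 5.75, 6.80 and 8.88 and each overlapped a peak of replicate 1, with 2.72, 4.70 and 5.42. The highest peak of replicate 1, with 13.3, had no partner. A630034I12Rik had 4 and 3 members, Gm38983 5 and 2, Gm36470 4 and 2, A930024E05Rik 3 and 3, and 2810013P06Rik 3 and 2. Gm32391 had 6 and 1, Gm39714 5 and 1, and 9330102E08Rik 5 and 1. With summits over 5000 bp from protein-coding bodies only, the sum over both replicates fell from 9 to 2 in Gm3134, from 7 to 2 in Gm32391 and from 5 to 0 in 2810013P06Rik. The members of Gm29695, Zfp783, D5Ertd605e and Cerox1 all lay within that distance.

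Over all lncRNA genes 5.51% had a member in replicate 1. By the form of the symbol it was 25.6% of the 250 genes in none of the classes that follow, which include named lncRNAs and some clone names such as AU020206. It was 19.4% of 31 small RNA hosts, 10.9% of 221 named for an opposite or overlapping gene and 9.62% of 1788 Rik transcripts. Of 10127 genes with a Gm number 4.23% had one, and of 314 with a LOC number 2.55%. The median body lengths of these classes ranged from 4139 bp in small RNA hosts to 9582 bp in Rik transcripts.

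The lists of lncRNAs that follow are to be read beside the share over all lncRNA genes, 5.51% in replicate 1 and 0.801% in replicate 2. They are not complete, and their denominators count only names that the gene table types as lncRNA. Of 14 listed lncRNAs linked to stem cells, 9 had a member in replicate 1 and 2 in both. Lncenc1, which is tied to the naive state of embryonic stem cells, had the most members of any lncRNA in replicate 1, with 8 peaks of fold enrichment from 1.69 to 9.54, and none in replicate 2. Platr22 had 5 members in replicate 1 and 1 in replicate 2, where the peak at the 3′ end had 8.59 and 5.43. Halr1, next to the Hoxa cluster, had 1 peak in each, with 2.39 and 7.14. Tunar (6.77), Platr6 (8.27), Platr10 (1.42), Platr14 (6.08), Platr20 (6.13) and Platr26 (6.41) had members in replicate 1 only. Outside the list, Platr7 had 2 members in each replicate, with highest values of 7.42 and 6.61. Platr21, also outside it, had 1 in each (9.60 and 6.74), and Panct2 had 2 in replicate 1 only. Of 10 abundant or widely studied lncRNAs, 4 had a member in replicate 1 and 0 in replicate 2. They were Neat1, the scaffold of paraspeckles (2.69), Oip5os1 (2.52), Pvt1, next to Myc (6.16), and Dleu2 (5.19). Malat1, Norad and Gas5 had no summit in either list. Trp53cor1, not listed, had 3 members in replicate 1 and 1 in replicate 2. Its highest values, 23.7 and 9.29, were those of the overlapping gene Gm41556 too. The unlisted genes given here were picked after their values were seen. Of 21 developmental lncRNAs, 4 had a member, all in replicate 1 only, namely Sox2ot (8.74), Otx2os1 (11.9), Pax6os1 (6.48) and Tug1, whose 5 peaks ranged from 1.79 to 4.41. Of the 3 lncRNAs of X inactivation, Ftx had 1 member in replicate 1 (3.38), and Xist and Jpx had none. Tsix, typed as antisense RNA and so not counted, had 2 summits in its body in replicate 1 and 0 in replicate 2. Platr25 of the stem cell list, typed as miscellaneous RNA and also not counted, had 3 and 1. Among small RNA hosts, 6 of 31 had a member in replicate 1, 2 in replicate 2 and 1 in both. Besides Mir9-3hg these were Mir124a-1hg (10.2), Mir22hg (10.4), Mirc35hg (7.26), Snhg11 (7.26) and Snhg18 (3.94) in replicate 1, and Snhg14 in replicate 2.

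Imprinted lncRNAs, expressed from 1 parental chromosome, had members on 4 of 8 genes in replicate 2 and on 2 of 8 in replicate 1, and Meg3 had them in both. The difference between these 2 counts rests on the rule for members. With any summit in the body counted, also those in a body of another biotype, both replicates had 5 of the 8, since Kcnq1ot1, Peg13 and Snhg14 then counted in replicate 1 and Peg13 in replicate 2. The genes themselves still differed, with Rian and H19 in replicate 2 only and Kcnq1ot1 and Airn in replicate 1 only. Meg3 and Rian are maternally expressed neighbours at the Dlk1-Dio3 locus on chromosome 12. Meg3 had 3 members in replicate 1, whose low fold enrichments were 2.17, 1.40 and 1.78, at −log10 q values of 32.5, 7.55 and 20.2. In replicate 2 a single member of 4286 bp at chr12:109545493-109549778 covered all 3. Its fold enrichment was 21.4, and its −log10 q of 40.1 was the highest among the members of that list. Meg3 held 2 more peaks in replicate 2, whose summits also lay in other gene bodies and which are therefore no members, with 10.8 and 28.4. Rian had 4 members in replicate 2, with 9.41, 6.53, 5.98 and 15.9, and no peak in replicate 1. H19 (8.82) and Snhg14 (7.65) had 1 member each in replicate 2 only, and Airn, the antisense transcript of Igf2r, 1 in replicate 1 only (6.48). Of the 9 members of replicate 2 that overlapped no peak of replicate 1, 6 lay on Rian (4 of them), H19 and Snhg14, whereas 7 of all 124 members of replicate 2 lay on imprinted lncRNAs of the list. The other 3 were on 4930444M15Rik, Gm34035 and AU020206. Igf2os, antisense to Igf2 and outside the list, was shared, with 23.3 and 7.26. These loci were picked after their values were seen.

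**Figure D3:**
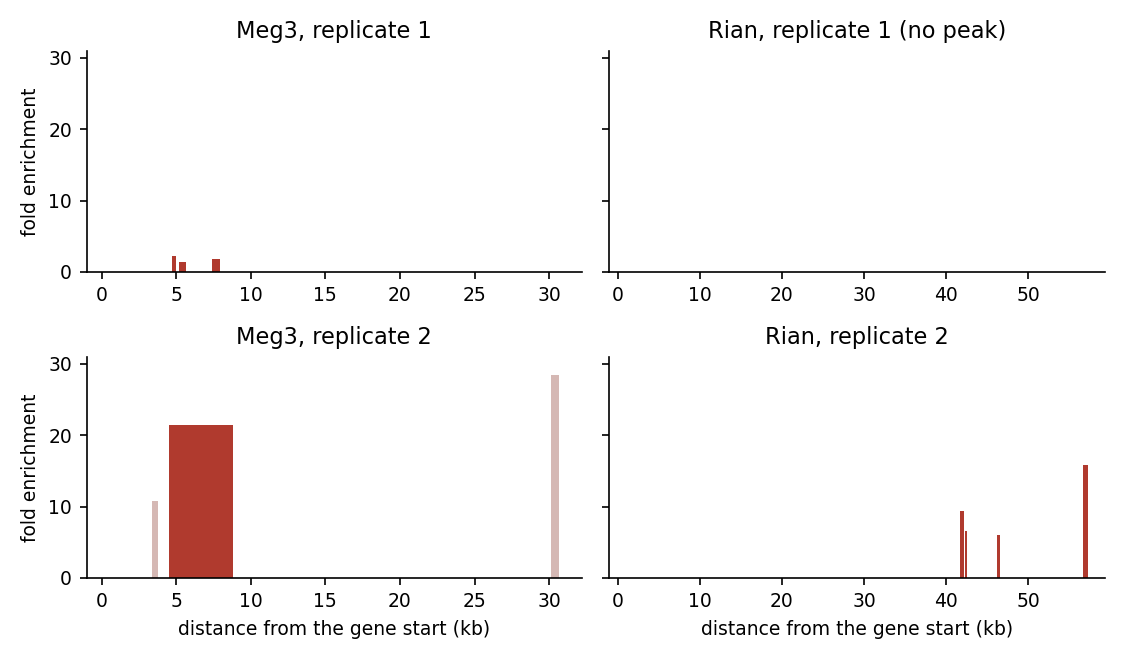
Fold enrichment (y axis) of the peaks on Meg3 (left) and Rian (right) in replicate 1 (top) and replicate 2 (bottom), by distance from the gene start in kb (x axis); bars span the peak, and pale bars are peaks whose summit also lies in another gene body. Meg3 peaks stayed at or under 2.17 in replicate 1 and reached 28.4 in replicate 2, and Rian had peaks in replicate 2 only.

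Of the 5 lncRNA genes with a member in replicate 2 alone, Rian, H19 and Snhg14 were the imprinted ones, beside Gm34035 (4.27) and Gm29417 (6.44). In the other direction, 605 genes had members in replicate 1 only. Those with the highest −log10 q were 1110002J07Rik (220), Gm5113 (201) and C330024D21Rik (176), and 2210406O10Rik had the highest fold enrichment among the top 10 of them, with 37.8. These were also chosen after their values were seen.

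Summits were spread along the lncRNA bodies with more of them towards the 3′ end. With a single lncRNA body of known strand, 719 members of replicate 1 and 98 of replicate 2 could be placed. The last 20% of the body held 37.6% and 42.9% of the summits and the first 20% held 20.9% and 15.3%. Protein-coding summits were more often in the last 20%, with 46.4% and 60.4%, and less often in the first, with 14.9% and 9.57%. Counted in bases the order was the reverse at the 3′ end, since 29.2% and 32.7% of the members lay within 1000 bp of it, against 13.1% and 22.8% of protein-coding summits. Within 1000 bp of the 5′ end lay 122 of 719 and 15 of 98 members, against 8.71% and 6.78% of protein-coding summits. Bodies include introns, so these shares are not positions in the spliced RNA. A window of 1000 bp is also a larger part of a short body than of a long one. The median body of lncRNA genes with a member was 9428 bp. Body lengths of protein-coding genes were not compared, so the part of body length in these shares was not tested.

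**Figure D4:**
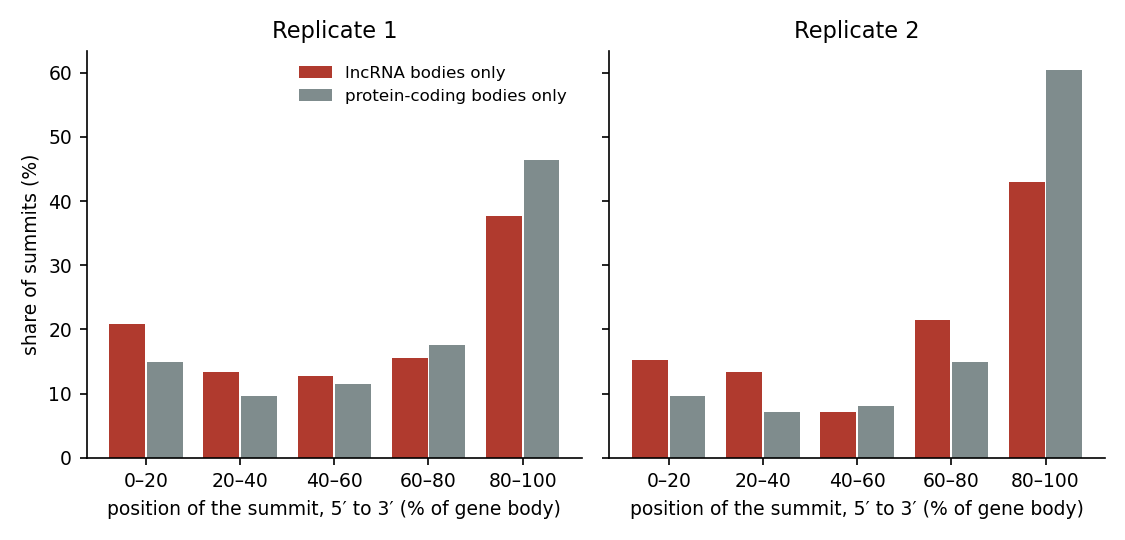
Share of summits (%, y axis) in each 20% of the gene body from 5′ to 3′ (x axis), for peaks in lncRNA bodies only (red, n = 719 in replicate 1 and 98 in replicate 2) and protein-coding bodies only (grey). The last bin is the highest in both classes, at 37.6% and 42.9% for lncRNAs and 46.4% and 60.4% for protein-coding genes.

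Part of the members lay close to a protein-coding gene. The median distance from summit to the nearest protein-coding body was 11658 bp in replicate 1 and 8723 bp in replicate 2, and 29.3% and 31.5% lay within 5000 bp. With both strands known, 149 of 198 of these members in replicate 1 (75.3%) and 17 of 29 in replicate 2 (58.6%) were on lncRNAs of the opposite strand, before the start of the protein-coding gene. Of 9533 lncRNA genes with strand, 35.4% overlapped a protein-coding body. A further 11.1% (1062 genes) lay within 5000 bp of one whose strand was known. For the 530 with a member in replicate 1 these shares were 25.7% and 23.2% (123 genes). Overlapping genes were left out of the next comparison, but not out of the members counted above. Of the 1062 genes, 53.5% (50.4 to 56.5) lay on the opposite strand before the start. Of the 123, which are among the 1062, 71.5% (62.7 to 79.3) did. The share of replicate 1 members found in replicate 2 was 13.5% under 1000 bp from a protein-coding gene and 11.6% from 1000 to 5000 bp. It was 12.8% from 5000 to 20000 bp and 8.11% over 20000 bp, so it did not fall steadily. In the same order of distance, the median fold enrichments of replicate 1 members were 6.81, 6.48, 6.97 and 6.96.

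**Figure D5:**
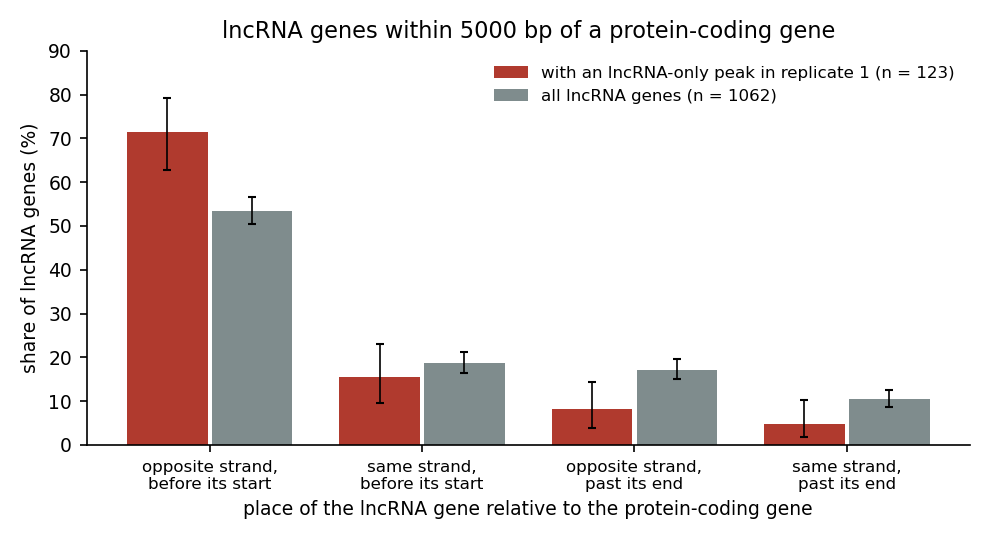
Place of lncRNA genes relative to the nearest protein-coding gene within 5000 bp (x axis), as a share of lncRNA genes (%, y axis), for those with a lncRNA-only peak in replicate 1 (red, n = 123) and for all (grey, n = 1062), with exact 95% binomial intervals. Opposite strand before the start was the most frequent place, at 71.5% and 53.5%. Genes whose body overlaps a protein-coding one, and pairs without both strands known, are left out.

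The limits of the rule passed close to some strong peaks. The members nearest to a protein-coding body in replicate 1 were those of Gm40698 (fold enrichment 4.22) and D030025P21Rik (33.9), both 15 bp from it. Just outside, a summit 1 bp from the body of 2900052L18Rik had a fold enrichment of 21.3, and one 5 bp from that of Gm12409 had 8.10. Of the 1994 summits in any lncRNA body in replicate 1, 966 also lay in a protein-coding body, and of the 329 of replicate 2, 202 did.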

How the data were processed

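The data are m6A-RIP-seq peak lists of 2 wild-type immunoprecipitations. Tools named by the submitters' notes are MACS2, Bowtie and SAMtools, with no version, on build mm10. The authors called peaks of each replicate against input with MACS2 at default settings. Each deposited row holds a position, a summit offset, a score (not used), a fold enrichment (a ratio over input) and −log10 of a p-value and a q-value. Read depth is unknown, libraries were made with a kit that keeps strand, and how peak calling treated strand and duplicates was not stated in what was read here.

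Summits were joined to 49997 RefSeq gene bodies of GRCm38.p6, 12731 of them lncRNA and 21900 protein-coding. Strand came from the promoter table, for 9533 lncRNA and 17492 protein-coding genes. On contigs outside the gene table lay 22 and 4 peaks. Peaks that overlapped by at least 1 bp were called shared, with exact (Clopper-Pearson) 95% intervals, and no test between groups was possible with 1 group. Named genes were, among genes with members in both replicates, the top 10 by fold enrichment, by −log10 q (each by the lower replicate) and by number of members, and the listed lncRNAs with a member. The members and the lists were chosen with earlier results of these data known, and the classes of gene symbols and the comparison of neighbouring genes were added after the lists were seen. On simulated data the classing and the overlap of 400 peaks each matched an exhaustive comparison with 0 differences. As alternatives, peaks were kept from a −log10 q of 5 or from a 4-fold enrichment. Others were the whole peak in place of the summit, a distance over 5000 bp from protein-coding genes, only protein-coding genes as other biotype, stricter overlaps, replicate 1 reduced to 5040 peaks and each replicate alone. The work was done in Python 3.11.15 (scipy 1.17.1, pandas 2.3.3, numpy 2.4.6; plots in matplotlib 3.10.9).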

Additional observations from a re-analysis of the deposited data

How the results depend on the processing

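The number of members in each replicate stayed within 1.5 times its value under each alternative tried. The number of genes with members in both replicates fell from 97 to 61 when replicate 1 was reduced to the length of replicate 2, because fewer peaks entered, and was 702 and 102 in the single replicates. The share of replicate 2 members with a partner, 92.7%, fell to 82.4% among peaks of 4-fold enrichment or more, 65.3% with an overlap of 50% of both peaks, 77.4% with summits within 100 bp and 54.0% with replicate 1 reduced. The share of replicate 1 members with a partner, 10.9%, became 8.99% among peaks of −log10 q 5 or more, 8.22% with an overlap of 50% and 43.3% with replicate 1 reduced. In ranges of −log10 q, added after the data were seen, it was 1.79%, 2.98%, 7.17%, 21.8% and 49.5%, in rising order. For the filters, the stricter overlaps and the reduced list, the share over all peaks was not computed. The median fold enrichment became 7.36 in replicate 1 with the 4-fold filter and 8.12 in replicate 2 with the −log10 q filter. The other 36 values moved by less than 1.5 times (counts), their binomial interval (shares) or the SD between replicates (medians). Of the numbers of members at single named genes, 109 stayed within 1.5 times and 11 did not, namely Meg3, D930048N14Rik and 2810013P06Rik with the 4-fold filter, and D930048N14Rik, 2810013P06Rik, Gm3134, Gm32391, Gm29695, Zfp783, D5Ertd605e and Cerox1 over 5000 bp from protein-coding genes. No paired analysis was possible because peak lists of 1 group only were analysed. No read counts came with the lists, so the depth behind a missing peak is unknown, and a gene without a member cannot be called unmethylated.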
